A study of Mus musculus with 8 samples.

Results

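Bone marrow macrophages that lacked Rbpj were compared with wild-type macrophages after both had been kept with TNF for 2 days. The comparison used 4 of the 8 libraries of the study, chosen by their labels: 2 knockout and 2 wild-type libraries with TNF, paired by replicate number. The knockout cells came from mice with both Rbpj alleles floxed and Cre at the LysM locus (Rbpj f/f;LysMCre), a driver that is active in monocytes, macrophages and granulocytes. The controls were labelled wild type, and no label says whether they carried LysMCre. TNF was given at 40 ng/ml. The other 4 libraries were 2 of each genotype at day 0, without TNF, and they entered only the estimate of the spread and the comparison with day 0. Because the study had no untreated group at day 2, TNF and time in culture cannot be told apart in any difference from day 0.

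RBP-J is the DNA-binding protein that Notch receptors use to switch on genes: without Notch it recruits corepressors, and the cleaved Notch intracellular domain turns it into an activator. In macrophage precursors RBP-J is known as a brake on the formation of osteoclasts, the multinucleated cells that dissolve bone, in response to TNF. Osteoclast formation runs through the factor NFATc1, which switches on genes for cell fusion, acid secretion and matrix digestion, and it is accompanied by a build-up of mitochondria.

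Library depth after TNF was 35653203 and 23581922 reads in wild type and 9855859 and 18962533 reads in the knockout (replicates 1 and 2 in each case), so both knockout libraries were shallower than both wild-type libraries. The part of this gap in the results was not tested. The differences were tested with limma on log2(CPM + 0.5), where CPM is a gene's reads scaled by the total of the library's reads counted in genes, in a model that also held the replicate number as a block, and p-values were adjusted by Benjamini-Hochberg over all 12194 genes tested. The labels give no animal or culture for a library, and the p-values then speak only for the spread among these libraries, which may be technical. The libraries are bulk RNA, in which fewer cells of a type and less RNA per cell cannot be told apart. The macrophage identity of the 4 libraries was checked with 12 defining markers, all of which were detected, with summed levels of 13264 and 21134 CPM in wild type and 8781 and 11683 CPM in the knockout.

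After TNF, 10 of 20 cell fusion genes, 14 of 27 bone resorption genes, 10 of 17 proton pump subunits and 31 of 40 nuclear subunits of oxidative phosphorylation were higher in the knockout. Fewer members were called lower in the lists of interferon induction and Toll-like receptors (7 of 26), glycolysis and hypoxia (7 of 27), NRF2 antioxidant genes (5 of 22) and resident macrophage identity (7 of 22). These lists and those below were chosen with earlier results of these data known. Their shares are descriptions and not independent findings. In all, 674 genes (5.53% of those tested) were higher and 457 (3.75%) were lower at adjusted p under 0.05, together 9.28%. The differences were often large: 498 of the higher and 346 of the lower genes exceeded 2-fold, 55 and 8 exceeded 8-fold, and the median absolute log2 difference of the called genes was 1.31. Of the 1131 called genes, 1022 did not overlap between the genotypes, where 18.8% and 16.1% of all genes tested did not overlap with the knockout higher and lower. The calls rested on the replicate 2 libraries and on the pairing. Without wild-type TNF replicate 2 no gene was called (1807 at unadjusted p under 0.05), without knockout TNF replicate 2 there were 8, and without the block there was 1, Mst1r, with 1372 at unadjusted p under 0.05. Every one of the 1131 genes that could be tested kept its direction in each of these 3 fits. Without the block it could not do otherwise, since the estimate is the same. All 1131 already had the same direction in both pairs, so this is weak support. The same limit applies to the calls named below: without knockout TNF replicate 2, Rbpj was still called and, of 117 other named genes called and testable there, Itgb3, Dcstamp, Atp6v0d2 and Mst1r were. Mst1r reached 1 CPM in 2 libraries, as testing required, only through the knockout TNF group, where it was high. Its calls are no support for a difference. Of 121 named genes called besides Rbpj, 105 were called after TMM or median-ratio scaling, and Calcr, Ctla2b, Lamp1, Scarb2, Vcl, Sod2, Gsta3, Tfrc, Slc2a1, Abca1, Sp100, Clec4e, Mafg, Sdha, Lyz2 and Cd22 were not. These 16 were not called by edgeR either, nor were 17 others, among them Mmp9, Pdpn, Saa3, Ptges, Alox5ap, Lif, Mt2, Pltp, Pmaip1 and Tpsab1.

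**Figure D1:**
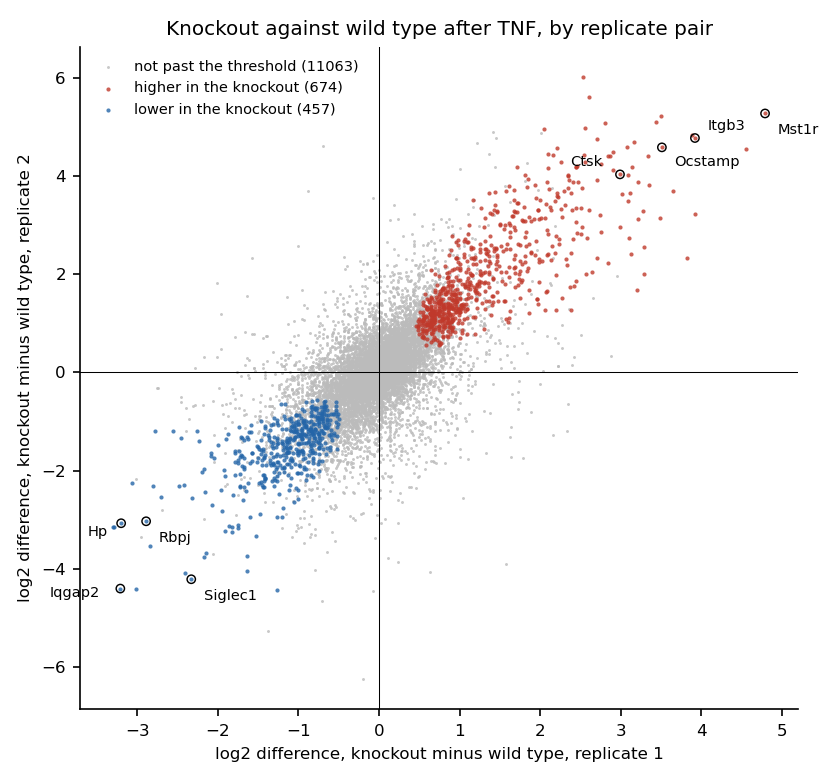
Log2 difference of each gene tested, knockout minus wild type after TNF, in replicate 1 (horizontal axis) and replicate 2 (vertical axis), on the log2(CPM + 0.5) scale. Red points are the 674 genes called higher, blue the 457 called lower and grey the 11063 not called. Mst1r lies at 4.79 and 5.27, Itgb3 at 3.92 and 4.77, and Iqgap2 at -3.21 and -4.40.

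The targeted gene was low in both knockout libraries. Rbpj (ENSMUSG00000039191.12, GRCm38 chromosome 5, 53466152 to 53657362, plus strand, a protein-coding gene) had 226 and 178 CPM in the wild-type libraries and 30.0 and 21.4 CPM in the knockout libraries. The groups did not overlap, and the log2 difference was -2.96 ± 0.17 (SE; limma adjusted p = 0.00339, and 0.0735 without the block), or 7.77-fold lower. The values cover the whole gene, and the labels do not say which exons were floxed, so the reads left in the knockout may come from exons outside the deletion. At day 0 the difference was -2.60 (adjusted p = 0.0264), where Rbpj was the only gene called. The stretch before a start inside the annotated gene, shown because the targeted factor's own recognition core occurs in it on either strand, comes from RefSeq (build GRCm38.p6, chr5:53590172-53590311, plus strand), with the RBP-J core TGGGAA or its reverse complement in capitals:
Rbpj promoter: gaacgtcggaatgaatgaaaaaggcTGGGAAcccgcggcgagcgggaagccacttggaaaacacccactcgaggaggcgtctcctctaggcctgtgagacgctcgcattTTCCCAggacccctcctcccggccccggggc

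Of 26 Notch pathway genes tested, 4 were higher and 3 lower in the knockout after TNF, with a list median of -0.02 on the log2 scale against 0.02 over all genes. Hes1, the best-known target gene of Notch, had 8 reads over both wild-type libraries and 43 over both knockout libraries (0.0561 and 0.254 CPM, and 1.83 and 1.32 CPM). Its log2 difference of 1.67 ± 0.33 (adjusted p = 0.0349, lost with a filter at 5 CPM) was smaller than the 3.86 ± 0.33 at day 0 (adjusted p = 0.0835), and the change between the times did not pass the test (adjusted p = 0.120). Hes1 reached 1 CPM only in the 4 knockout libraries, 2 of them at day 0. It passed the filter only through the genotype where it was high, so its call is no support for a difference. The receptor gene Notch4 stood at 13.4 and 0.806 CPM in wild type and 35.7 and 8.38 CPM in the knockout, higher in each pair by 1.38 and 2.77 but overlapping between the groups. Maml3, a Notch coactivator, and Dtx4, an E3 ligase of the pathway, were higher by 1.58 ± 0.22 and 1.08 ± 0.16 (adjusted p = 0.0203 and 0.0208). Jag1, a ligand, fell by 1.27 on the log2 scale, from 179 and 130 to 92.6 and 43.0 CPM, without overlap. The receptor Notch2 (-0.98) and the sheddase Adam17 (-0.97) were lower too. The counts were 2 higher and 0 lower without wild-type TNF replicate 1, and 2 and 1 without either knockout day 0 library.

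Among osteoclast transcription factors, the knockout had more Nfatc1, Prdm1, Ppargc1b and Fosl2 after TNF. Nfatc1, the factor on which osteoclast formation depends, stood at 279 and 144 CPM in wild type and 883 and 1316 CPM in the knockout. The lowest knockout value was above the highest wild-type value, and the log2 difference was 2.42 ± 0.35 (adjusted p = 0.0203), larger in replicate 2 (3.19) than in replicate 1 (1.66). At day 0 the 4 libraries lay between 67.2 and 88.8 CPM, with both genotypes at a like level. Prdm1 encodes BLIMP1, a repressor that silences inhibitors of osteoclast formation (GRCm38 chromosome 10, 44437177 to 44528501, minus strand). It rose from 54.9 and 76.4 to 205 and 419 CPM, a difference of 2.17 ± 0.20 (adjusted p = 0.0145), and was already 1.29 higher at day 0 without passing the test (adjusted p = 0.271). Ppargc1b, a coactivator of mitochondrial genes, stood at 30.6 and 14.5 CPM in wild type and 111 and 64.6 CPM in the knockout, and Fosl2, an AP-1 subunit, at 415 and 235 and at 912 and 1393 CPM. Neither gene overlapped between the genotypes, and their differences were 1.98 ± 0.24 and 1.85 ± 0.32 (adjusted p = 0.018 and 0.0274). In total 5 of 23 factors of this kind were higher, the fifth being Mef2d (0.95), and 1 was lower, the lysosomal gene regulator Tfe3 (-0.71). The list median was 0.09. The counts were 5 and 0 without wild-type TNF replicate 1, 4 and 0 without either wild-type day 0 library, and 3 and 0 without either knockout day 0 library. Fos, the AP-1 subunit needed for osteoclasts, stood at 152 and 60 CPM in wild type and 320 and 159 CPM in the knockout and did not pass (1.23 ± 0.53, adjusted p = 0.193).

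Of 21 repressors of osteoclast formation, 4 were lower and 1 was higher. Irf8, an interferon regulatory factor that restrains NFATc1, stood at 160 and 102 CPM in wild type and 58.6 and 33.3 CPM in the knockout. Both knockout values were below both wild-type values, a difference of -1.52 ± 0.15 (adjusted p = 0.0165). At day 0 Irf8 was at 218 and 115 CPM in wild type and 224 and 151 CPM in the knockout, where the difference was 0.21. Bcl6, a target that BLIMP1 represses, fell by 0.80 on the log2 scale, from 67.1 and 70.3 to 42.8 and 36.1 CPM. Cebpb and Irf2 fell by 1.51 and 0.85. Cebpb overlapped between the groups, at 417 and 95.2 against 196 and 24.6 CPM (limma adjusted p = 0.902 without the block). Id3, an inhibitor of basic helix-loop-helix factors, went the other way, from 1.63 and 0.933 CPM in wild type to 6.80 and 11.8 CPM in the knockout (2.44 ± 0.34, adjusted p = 0.0201). It was also higher in both knockout libraries at day 0 (70.3 and 100 against 25.6 and 38.8 CPM). The number called lower was 3 without wild-type TNF replicate 1, 6 without knockout TNF replicate 1 and 2 without any 1 of the day 0 libraries.

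Fusion and migration genes of osteoclasts were higher in the knockout: 10 of 20 passed, 0 were lower, and the list median was 1.40 on the log2 scale. Itgb3, the beta3 chain of the vitronectin receptor (GRCm38 chromosome 11, 104608000 to 104670476), stood at 19.8 and 60.3 CPM in wild type and 307 and 1662 CPM in the knockout. The knockout libraries lay above every other library of the study, since the 4 day 0 libraries held 16.4 to 62.8 CPM, and the difference was 4.35 ± 0.27 (adjusted p = 0.00417). Dcstamp, the receptor without which osteoclast precursors do not fuse (GRCm38 chromosome 15, 39745930 to 39760938), rose from 32.7 and 42.3 to 337 and 602 CPM, or 12-fold (3.58 ± 0.20, adjusted p = 0.00339). Ocstamp, its partner in fusion (GRCm38 chromosome 2, 165393760 to 165400405), rose from 28.6 and 14.4 to 331 and 355 CPM (4.04 ± 0.28, adjusted p = 0.00669). Both were at most 2.31 CPM in the day 0 libraries. Atp6v0d2, a proton pump subunit also needed for fusion, stood at 225 and 334 CPM in wild type and 1226 and 3402 CPM in the knockout (2.90 ± 0.23, adjusted p = 0.0106). Itga2 (3.48), the recycling regulator Rufy4 (3.32), the sialic acid lectin Siglec15 (3.19), the podosome scaffold Sh3pxd2a (2.24), Itgav, the chain that pairs with beta3 (2.11), and Plekhm1 (1.48) were the other members called. Src, the kinase of the sealing zone, was higher in both pairs (1.73 and 0.90) without passing (adjusted p = 0.110). Fusion genes called numbered 0 without wild-type TNF replicate 2 and 3 without knockout TNF replicate 2. Leaving out each other library gave 8 to 10.

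Enzymes and transporters of bone resorption were higher as well, with 14 of 27 called higher, 0 lower and a list median of 1.50. Ocstamp is in this list and in the fusion list and was counted in both. Ctsk, the cathepsin that digests bone collagen (GRCm38 chromosome 3, 95499256 to 95509362), stood at 297 and 948 CPM in wild type and 2355 and 15476 CPM in the knockout. The genotypes did not overlap, but the replicates of the knockout differed more than 6-fold, and the difference was 3.51 ± 0.46 (adjusted p = 0.0194). Acp5, tartrate-resistant acid phosphatase (GRCm38 chromosome 9, 22126727 to 22135711), rose from 973 and 638 to 4972 and 10199 CPM (3.18 ± 0.49, adjusted p = 0.0228). Calcr, the calcitonin receptor, was almost silent in wild type at 1.09 and 1.36 CPM and stood at 8.73 and 119 CPM in the knockout. Its pair differences lay further apart than those of any other gene named here (2.53 and 6.01, adjusted p = 0.0407). Oscar, a collagen receptor of osteoclasts, rose from 4.99 and 7.08 to 31.7 and 239 CPM, and Mmp9, a matrix metalloproteinase, from 4718 and 2777 to 8354 and 12493 CPM (3.77 and 1.50). The acid-forming carbonic anhydrase Car2 (3.17), the proton exchanger Slc9b2 (3.27), the anion exchanger Slc4a2 (2.26), the creatine kinase Ckb (2.92), the sphingosine-1-phosphate exporter Spns2 (3.70), Rab38 (3.62), Slc37a2 (2.49) and the vesicle sorting protein Snx10 (1.98) were also called. Among members that did not pass were Clcn7 (0.82), Ostm1 (1.15) and Tcirg1 (0.77), parts of the osteoclast's chloride and proton transport. Lysosomal cathepsins shared with macrophages had values of -0.40 (Ctsb), -0.77 (Ctsd) and -1.21 (Ctsl), none of which passed. Of the resorption genes 9 were called higher without wild-type TNF replicate 1, and 0 without either replicate 2 library of the TNF groups.

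The vacuolar proton pump, which acidifies lysosomes and the resorption pit, had 10 of 17 subunits higher and 1 lower, with a median of 0.91. Atp6v0d2 is in this list and in the fusion list and was counted in both. Atp6v1b2, part of the catalytic head, rose from 789 and 1043 to 2766 and 4953 CPM (2.03 ± 0.22, adjusted p = 0.0166). Atp6v1d and Atp6v1c1, of the stalk, were higher by 1.69 and 1.46. The exception was Atp6v0a1, an isoform of the membrane subunit a, which fell by 1.26 on the log2 scale, from 147 and 84.9 to 57.4 and 37.5 CPM. The 30 lysosomal hydrolases and membrane proteins did not share this pattern: 1 was higher, the sphingomyelinase Smpd1 (1.91), 3 were lower, the membrane proteins Lamp2 (-1.10), Lamp1 (-1.07) and Scarb2 (-1.05), and the median was 0.16. Of 27 actin ring and podosome genes 5 were higher and 0 lower: Anxa8 (2.65), the actin regulator cortactin, Cttn (2.09), the motor Myo1e (1.70), vinculin, Vcl (1.03), and paxillin, Pxn (0.96). Without the knockout TNF libraries, Anxa8 did not reach 1 CPM in 2 libraries. It passed the filter only through the group where it was high, so its call is no support for a difference. Leaving out wild-type TNF replicate 1 left 4 pump subunits and 1 actin ring gene called higher, and leaving out either knockout day 0 library left 6 and 2. The 3 lysosomal genes called lower became 0 in each of these 3 fits, and without knockout TNF replicate 1 the number higher was 5.

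**Figure D2:**
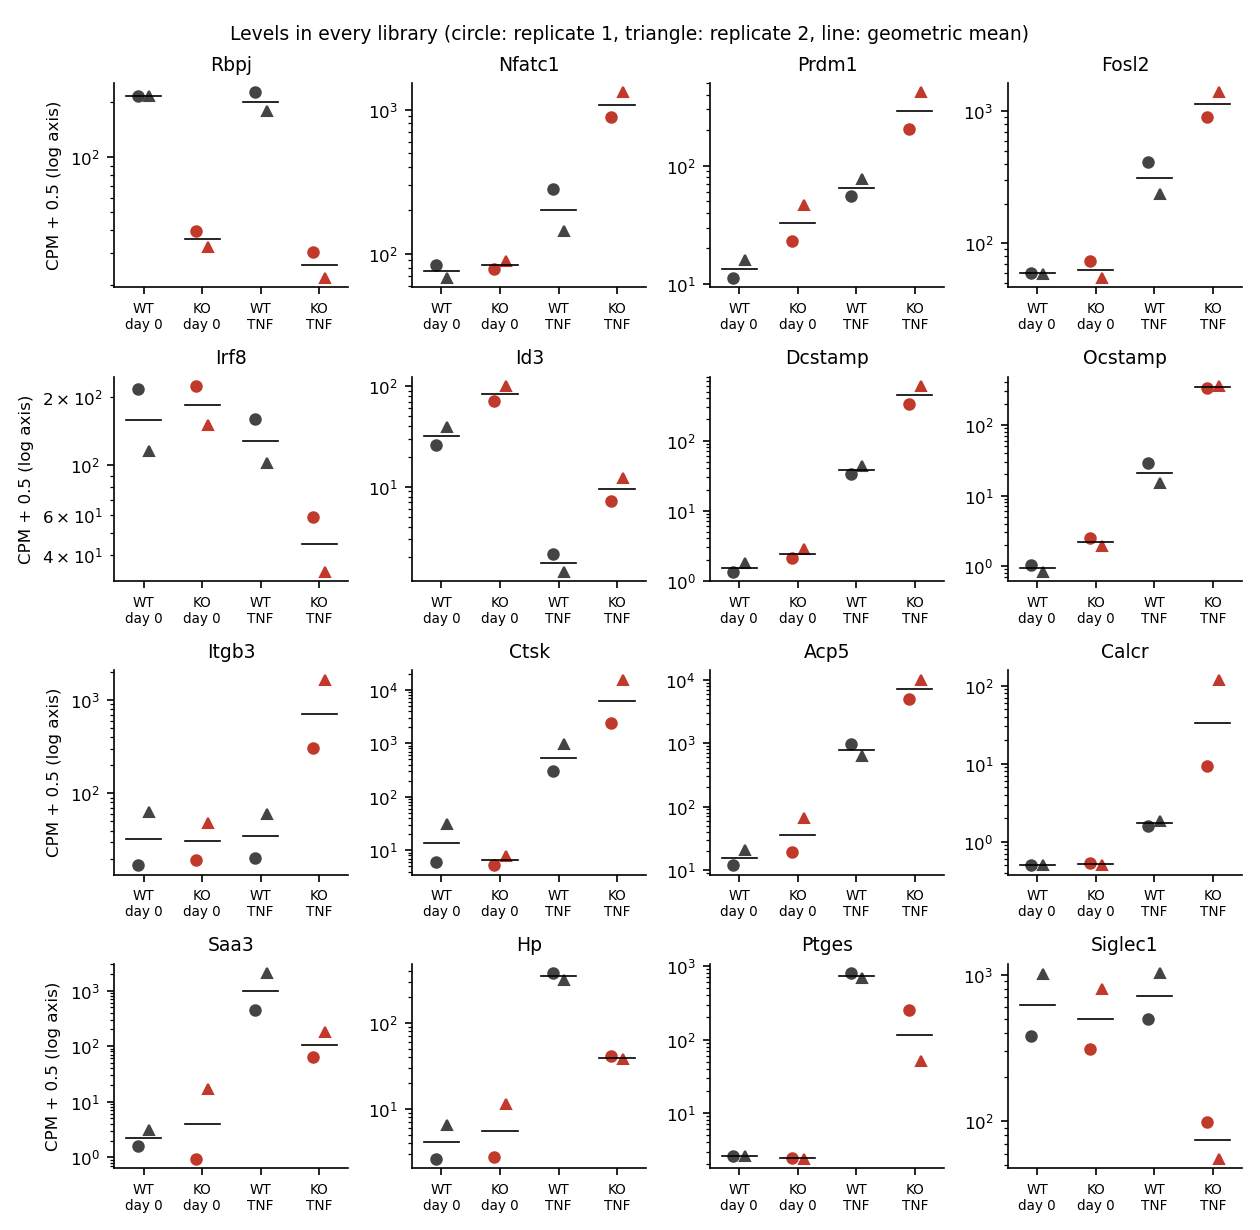
Level of 16 genes in each of the 8 libraries (CPM + 0.5, log axis, own scale for each gene). Grey symbols are wild type, red symbols knockout, circles replicate 1, triangles replicate 2, and lines the geometric mean of 2 libraries. Dcstamp and Ocstamp have low values at day 0 and their highest in the knockout after TNF, whereas Siglec1 (98.3 and 54.6 CPM) and Irf8 have their lowest there.

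Nuclear genes of the respiratory chain moved together. Of 40 subunits of oxidative phosphorylation, 31 were higher in the knockout and 0 were lower, against 5.53% and 3.75% of all genes. All 40 differences were positive, and the quartiles of the list were 0.78 and 1.16 on the log2 scale, around a median of 0.93. Uqcrc2 of complex III stood at 175 and 209 CPM in wild type and 413 and 757 CPM in the knockout (1.54 ± 0.18, adjusted p = 0.018). Cyc1, cytochrome c1, rose from 187 and 89.5 to 406 and 340 CPM, and Uqcrfs1, the Rieske protein, from 150 and 111 to 325 and 320 CPM (1.52 and 1.32). None of these overlapped between genotypes. Complex I (Ndufs1, 1.27), complex II (Sdha, 1.0), complex IV (Cox5b, 0.87) and the ATP synthase (Atp5g1, 1.62) each had members that were higher. The list median was 0.71 in replicate 1 and 1.17 in replicate 2, and at day 0 it was 0.02. The count fell to 12 without wild-type TNF replicate 1, 18 and 19 without wild-type day 0 replicates 1 and 2, and 10 without either knockout day 0 library. It was 0 without either replicate 2 library of the TNF groups.

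The tricarboxylic acid (TCA) cycle and fatty acid oxidation had 20 of 34 genes higher and 2 lower, with a median of 1.03. Mdh1, a malate dehydrogenase of the shuttle that carries electrons into mitochondria, rose from 221 and 178 to 578 and 1075 CPM (1.99 ± 0.28, adjusted p = 0.0203). Acaa2 (1.89) and Etfdh (1.74), of fatty acid oxidation, and Idh3a (1.70), of the cycle itself, were higher too, as were both pyruvate dehydrogenase E1 subunits, Pdha1 (1.44) and Pdhb (1.56). The exceptions were Pcx, pyruvate carboxylase (-1.44), and Idh1, the cytosolic isocitrate dehydrogenase that makes NADPH (-0.89). Mitochondrial ribosomal proteins were positive in 33 of 34 cases, but the median was 0.52 and 5 were called, with Mrps35 the largest (1.43). Cytosolic ribosomal proteins were also positive in 33 of 34 cases with a median of 0.22, and 0 were called by limma, edgeR or DESeq2, or had an unadjusted p under 0.05 in limma. Leaving out wild-type TNF replicate 1 left 13 genes of the cycle and fatty acid oxidation and 1 mitochondrial ribosomal gene called higher, and leaving out a knockout day 0 library left 10 or 11 and 1.

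Of 27 glycolysis and hypoxia genes 7 were lower, 0 were higher, and the median was -0.49. Hif1a, the oxygen-regulated subunit of the hypoxia factor, stood at 443 and 519 CPM in wild type and 175 and 167 CPM in the knockout. It did not overlap and was lower by a similar amount in both pairs (-1.34 and -1.64, adjusted p = 0.018). Slc16a3, the lactate exporter, had very different levels in the replicates, 565 and 39.1 CPM in wild type and 163 and 10.7 CPM in the knockout, yet the pair differences were -1.79 and -1.82 (adjusted p = 0.0208, and 0.931 without the block). The glucose transporter Slc2a1 (-1.31) overlapped between the groups, at 400 and 180 against 201 and 57.6 CPM (limma adjusted p = 0.821 without the block). The glucose transporter Slc2a3 (-1.03), the phosphofructokinase Pfkl (-1.0), the hexokinase Hk3 (-0.99) and Pfkfb3 (-1.14), which makes an activator of glycolysis, were the other members called. Without wild-type TNF replicate 1 there were 2, without knockout TNF replicate 1 there were 3 lower and 2 higher, and without either knockout day 0 library there were 4.

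Antioxidant genes under the factor NRF2 were lower in 21 of 22 cases by sign, with 5 called and a median of -0.69. Hmox1, heme oxygenase, fell from 2373 and 2230 to 1008 and 538 CPM, without overlap (-1.64 ± 0.29, adjusted p = 0.0278). The others called were the glutathione genes Gsta3 (-1.50) and Gclm (-1.23), G6pdx, the entry enzyme of the pentose phosphate pathway (-1.19), and catalase, Cat (-0.87). Of 12 metallothionein and zinc transporter genes 1 was called higher and 1 lower. Mt3 rose from 7.26 and 7.21 to 114 and 219 CPM (4.36 ± 0.39, adjusted p = 0.0141), and Mt2 fell from 130 and 39.4 to 35.3 and 4.06 CPM (-2.49 ± 0.44, adjusted p = 0.0274). Of 15 iron genes 1 was called higher and 2 lower. The transferrin receptor Tfrc was higher, at 1882 and 2485 against 524 and 597 CPM (1.95 ± 0.42, adjusted p = 0.0403). The phagosomal metal transporter Slc11a1 was lower (-1.09), as was Hmox1, which is in this list and in the antioxidant list. Over all genes tested 5.53% were called higher and 3.75% lower, and 1 or 2 calls in a list here are no result about that list. In lipid metabolism 1 of 26 genes of cholesterol and fatty acid synthesis was called lower, near that share, the desaturase Scd1. It fell from 39.1 and 7.68 to 3.55 and 0.422 CPM (-3.22 ± 0.54, adjusted p = 0.0253). Of 18 LXR and cholesterol efflux genes the exporter Abca1 was called, from 734 and 1853 to 391 and 402 CPM (-1.56 ± 0.35, adjusted p = 0.0442). With any 1 of the day 0 libraries left out, Abca1 was not called and 2 antioxidant genes were.

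**Figure D3:**
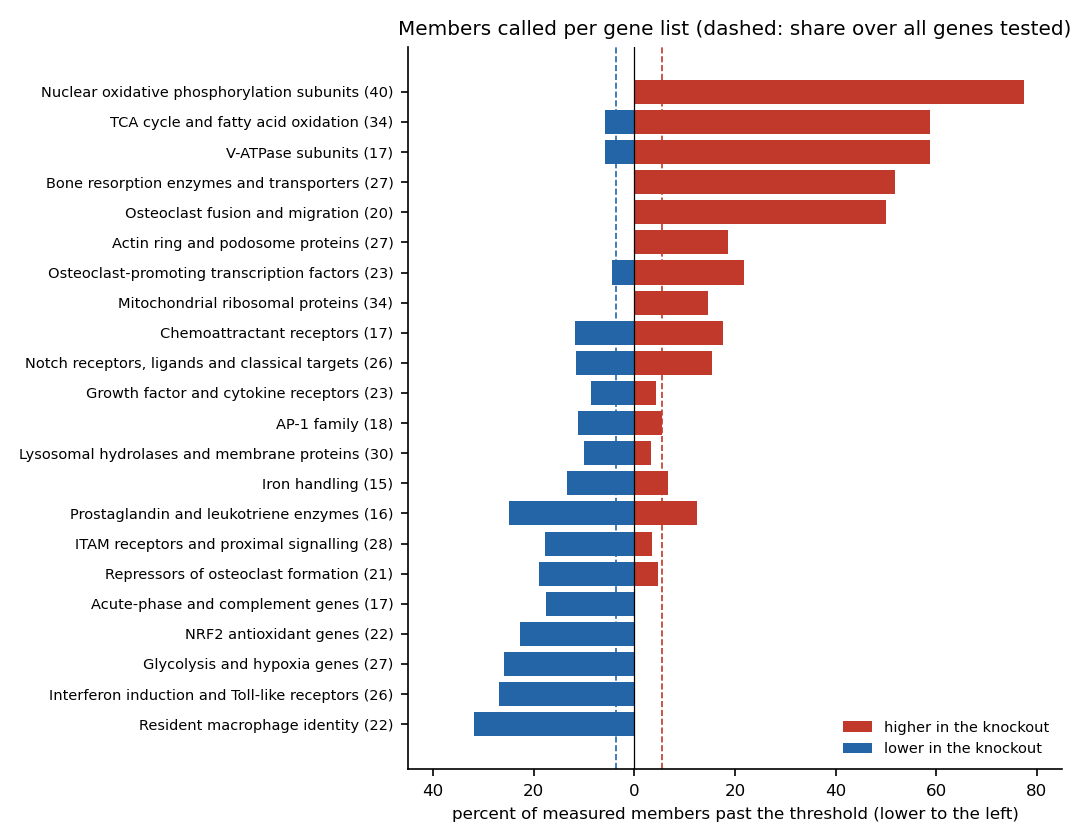
Share of the tested members of 22 gene lists called higher (red, to the right) or lower (blue, to the left) in the knockout after TNF, in percent, with the number tested in parentheses. The dashed lines mark 5.53% and 3.75%, the shares over all genes tested. Oxidative phosphorylation has 31 of 40 members to the right, and resident macrophage identity 7 of 22 to the left.

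The largest increase among called genes named by rule was that of Mst1r. Mst1r, the receptor tyrosine kinase RON (GRCm38 chromosome 9, 107906873 to 107920383, plus strand), stood at 1.09 and 0.933 CPM in wild type and 43.7 and 54.7 CPM in the knockout. With 61 against 1468 reads, it was 32.7-fold higher (5.03 ± 0.29, adjusted p = 0.00339), and at most 0.109 CPM were found in any day 0 library. Trim54, a muscle RING-finger protein that binds microtubules, had 0 reads in all 4 day 0 libraries, 0.477 and 0.0848 CPM in wild type with TNF, and 22.3 and 13.2 CPM in the knockout (4.55 ± 0.35, adjusted p = 0.0106). F2r, the thrombin receptor PAR1, rose from 6.09 and 5.72 to 73.8 and 230 CPM (4.35 ± 0.46, adjusted p = 0.0165). The signalling adaptor Nyap2 (4.27), the cytoskeletal adaptor Sorbs2 (4.11), the diacylglycerol kinase Dgki (3.94), the tetraspanin Tspan7 (3.92) and the calcineurin regulator Rcan2 (3.87) completed the 12 largest, with Mt3, Itgb3, Calcr and Ocstamp. Each was higher in both pairs, with the groups apart, as the choice of these genes required. Trim54, Nyap2 and Sorbs2 reached 1 CPM only in the 2 knockout TNF libraries. Without those libraries, Mst1r, Dgki and Tspan7 did not reach 1 CPM in 2 libraries either. All of these passed the filter only through the group where they were high, so their calls are no support for a difference.

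The promoters of 5 genes that were higher in the knockout are shown because each holds the recognition core of the missing factor. They come from RefSeq (build GRCm38.p6), 25 bases to either side of the outer cores, within 250 bases before a start of the gene and read along its strand, with TGGGAA or its reverse complement in capitals. Mst1r is chr9:107906711-107906766 (plus strand), Trim54 chr5:31116395-31116559 (plus), Ccr3 chr9:124021772-124021872 (plus), Prdm1 chr10:44458907-44458962 (minus) and Lif chr11:4257415-4257470 (plus).
Mst1r promoter: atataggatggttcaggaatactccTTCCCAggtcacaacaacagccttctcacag
Trim54 promoter: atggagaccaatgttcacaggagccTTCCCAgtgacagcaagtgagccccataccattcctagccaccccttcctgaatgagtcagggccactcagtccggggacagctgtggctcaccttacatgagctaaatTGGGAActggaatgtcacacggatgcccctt
Ccr3 promoter: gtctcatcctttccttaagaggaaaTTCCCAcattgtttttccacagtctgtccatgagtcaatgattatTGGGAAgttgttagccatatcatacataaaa
Prdm1 promoter: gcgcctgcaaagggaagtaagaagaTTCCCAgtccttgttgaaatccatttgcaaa
Lif promoter: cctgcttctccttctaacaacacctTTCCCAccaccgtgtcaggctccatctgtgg

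The core of 6 bases is common. Of 11901 promoter windows of genes tested (9358 genes matched by symbol, some with several starts), 20.5% held TGGGAA on either strand within 250 bases. The share was 23.5% among windows of genes higher in the knockout (154 of 656) and 18.5% among those of genes lower (93 of 502). The NFAT core GGAAA, which shares letters with the RBP-J core and can overlap it, was in 54.4% of all windows, 52.6% of those of higher genes and 55% of those of lower genes. The E-box TCACGTG or TCATGTG, bound by MITF and TFE factors, was in 6.60% of all windows, 5.18% of those of higher genes and 8.17% of those of lower genes. It was in 7 of 32 windows (21.9%) of 22 genes of the resorption list, Acp5 among them. The other lists had 2 of 13 (proton pump), 1 of 32 (oxidative phosphorylation), 0 of 18 (fusion) and 1 of 46 (interferon-stimulated genes). The interferon element GAAANNGAA was in 6.32% of all and in 18 of 46 windows (39.1%) of type I interferon-stimulated genes. These are descriptions of letters on both strands, not of binding.

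The largest decrease among the genes named by rule was that of Iqgap2. This scaffold of the actin cytoskeleton (GRCm38 chromosome 13, 95627177 to 95891922) stood at 30.5 and 112 CPM in wild type and 2.84 and 4.8 CPM in the knockout (-3.81 ± 0.41, adjusted p = 0.0175). Uchl1, a deubiquitinase, fell from 110 and 47.8 to 13.1 and 1.79 CPM (-3.71), and Pdpn, podoplanin, from 55.5 and 129 to 10 and 7.17 CPM (-3.24). Both of these were already lower in the knockout at day 0, with differences of -3.0 and -3.45, without passing there (adjusted p = 0.337 and 0.348). Siglec1, the sialoadhesin of macrophages, was lower after TNF, at 98.3 and 54.6 CPM against 496 and 1021 CPM (-3.27 ± 0.53, adjusted p = 0.024), while its day 0 levels overlapped (312 and 796 against 380 and 1003 CPM). C1s1, a complement protease (-2.96), the heat shock gene Hspa1b (-2.84) and Ctla2b (-2.84), a protease inhibitor homologue, were also among the 12 largest. Without the wild-type TNF libraries, C1s1 and Hspa1b did not reach 1 CPM in 2 libraries. Both passed the filter only through the group where they were high, so their calls are no support for a difference. Hspa1b and Ctla2b have close copies, and how shared reads were counted is not stated in the sources used here.

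Some acute-phase, prostaglandin and oxidase genes were lower, with 3 of 17, 4 of 16 and 2 of 14 members of their lists called. Saa3, serum amyloid A, stood at 450 and 2051 CPM in wild type and 62.3 and 177 CPM in the knockout, and Hp, haptoglobin, at 375 and 315 and at 40.3 and 37.0 CPM. Neither overlapped, and both were lower by a similar amount in each pair, with differences of -3.19 ± 0.69 and -3.14 ± 0.56 (adjusted p = 0.0408 and 0.0278). With properdin, Cfp (-1.13), they were the 3 of 17 acute-phase and complement genes called, and the list median was -0.95. Ptges, the enzyme that makes prostaglandin E2, fell from 801 and 682 to 256 and 51.1 CPM, and Alox5ap, which feeds leukotriene synthesis, from 476 and 302 to 201 and 54.2 CPM (-2.68 and -1.85). The prostaglandin E2 receptors Ptger2, from 15.7 and 16.6 to 3.15 and 0.844 CPM (-2.91), and Ptger4, from 29.6 and 23.7 to 9.13 and 9.23 CPM (-1.48), were lower as well. The list of 16 prostaglandin and leukotriene genes had 4 lower and 2 higher, Ptges2 (1.20) and Pla2g15 (0.95). Cybb and Ncf1, subunits of the phagocyte oxidase, fell by 1.26 and 1.76. The itaconate-producing enzyme Irg1 (also Acod1) had -1.65 (adjusted p = 0.0619) and Nos2, at 1.23 and 16.2 CPM in wild type and 1.01 and 1.79 CPM in the knockout, -1.53 (adjusted p = 0.253), so neither passed. In each of the acute-phase and prostaglandin lists 1 gene was called lower without wild-type TNF replicate 1. Without either knockout day 0 library there were 5 acute-phase genes lower, and 2 prostaglandin genes lower with 0 higher.

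No chemokine gene passed in limma with all 8 libraries. Of 18 cytokine genes 1 was higher and 1 lower, near the 5.53% and 3.75% of all genes tested. Of 18 inflammatory cytokines, Lif, a cytokine of the interleukin-6 family, was higher, at 38.8 and 31.0 against 6.62 and 3.94 CPM (2.64 ± 0.31, adjusted p = 0.018), and Tnfsf9, the ligand of 4-1BB, was lower (-1.52 ± 0.29, adjusted p = 0.0331). Tnf itself stood at 38.2 and 93.0 CPM in wild type and 24.9 and 38.9 CPM in the knockout, lower in each pair but short of the threshold (-0.93 ± 0.23, adjusted p = 0.0565). Il1b (1.15) and Cxcl10 (0.14) did not pass. Of 20 chemokines 0 were called by limma (7 at unadjusted p under 0.05) or edgeR, with 17 negative and a median of -0.73, and DESeq2 called 1 higher and 5 lower. In limma 3 were called lower without knockout TNF replicate 1, 1 without wild-type TNF replicate 1, and 1 higher and 1 lower without either wild-type day 0 library. The largest difference was that of Ccl2, which attracts monocytes, at 46.5 and 16.6 CPM in wild type and 6.80 and 1.95 CPM in the knockout (-2.75 ± 0.66, adjusted p = 0.0512). Its difference at day 0 was -2.46. Of 25 NF-kB genes 1 was called, superoxide dismutase Sod2, at 893 and 1490 against 545 and 591 CPM (-1.02 ± 0.21, adjusted p = 0.0367), and it was not called with any 1 of the day 0 libraries left out.

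Receptors for chemoattractants moved in both directions. Ccr3, the eotaxin receptor, stood at 7.54 and 8.18 CPM in wild type and 89.6 and 76.5 CPM in the knockout (3.32 ± 0.61, adjusted p = 0.0296). Ccr1, the receptor of inflammatory CC chemokines, rose from 80.3 and 103 to 443 and 861 CPM (2.76 ± 0.36, adjusted p = 0.0194), and was 1.79 higher at day 0 without passing there. Gpr183, the oxysterol receptor that guides osteoclast precursors, was higher at 85.8 and 91.7 against 32.6 and 9.29 CPM (2.31). S1pr1, a sphingosine-1-phosphate receptor, fell from 45.2 and 42.4 to 15.9 and 5.27 CPM (-2.18). In all, 3 of 17 such receptors were higher and 2 lower. These counts were 1 and 0 without wild-type TNF replicate 1, 1 and 4 without knockout TNF replicate 1, and 1 and 2 without a knockout day 0 library. Of 23 growth factor and cytokine receptors, the TGF-beta receptor Tgfbr1 was higher, at 1132 and 1778 against 248 and 261 CPM (2.48 ± 0.35, adjusted p = 0.0202), and the interleukin receptors Il10ra (-1.25) and Il21r (-1.13) were lower. Over all genes tested the shares were 5.53% higher and 3.75% lower. Tnfrsf11a, the receptor RANK, had 99.7 and 68.2 CPM in wild type and 166 and 275 CPM in the knockout and did not pass (1.37 ± 0.39, adjusted p = 0.0775). Csf1r, the receptor of the macrophage growth factor, lay at 2706 and 3164 against 2078 and 3266 CPM (-0.17 ± 0.25, adjusted p = 0.705).

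Of 26 genes of interferon induction and Toll-like receptors, 7 were lower in the knockout, 0 were higher, and the median was -0.93. Tlr8 and Tlr7, endosomal receptors of RNA, stood at 100 and 232 and at 125 and 378 CPM in wild type, and at 36.3 and 46.9 and at 54.9 and 99.1 CPM in the knockout (-1.87 and -1.55). Cd14, the lipopolysaccharide coreceptor, fell from 874 and 515 to 345 and 139 CPM, and Irak3, an inhibitor of Toll-like receptor signalling, from 103 and 157 to 42.9 and 44.2 CPM (-1.61 and -1.54). Tlr4 (-1.02), Tlr6 (-1.18) and the kinase Ikbke (-1.38) were the other members called. The C-type lectins Clec4d and Clec4e, receptors of mycobacterial glycolipid, were lower (-1.74 and -1.71), and 2 of 18 lectins were called. Of 28 ITAM receptors and signalling genes, 5 were lower, among them the IgG receptors Fcgr1 (-1.97), from 12.5 and 43.2 to 5.17 and 5.96 CPM, and Fcgr3 (-1.31), from 210 and 279 to 97.7 and 96.8 CPM. Pira6 (-2.11), Blnk (-0.87) and Cbl (-0.84) were the rest, and Oscar was the only one higher. The paired receptor Pira6 belongs to a family of close copies and is uncertain for that reason. Without either knockout day 0 library, 5 genes of interferon induction and Toll-like receptors and 1 of the ITAM list were called lower, and without wild-type TNF replicate 1 there were 7 and 1.

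Interferon-stimulated genes differed between the replicates. Of 48 such genes 46 had a negative value and 1 was called, Sp100, a nuclear body protein, at 39.8 and 203 against 23.5 and 50.1 CPM (-1.38 ± 0.32, adjusted p = 0.0483). The list median was 0.04 in replicate 1 and -1.51 in replicate 2, so the pairs did not show the same thing. Summed over the list, replicate 1 had 1802 CPM in wild type and 1560 CPM in the knockout, and replicate 2 had 11967 and 4084 CPM. Without knockout TNF replicate 1, 17 of these genes were called lower, and without either replicate 2 library of the TNF groups 0 were. GBP and IRG GTPases showed the same split by replicate (0.25 and -1.05), with 0 of 17 called by limma (3 at unadjusted p under 0.05) and edgeR. DESeq2 called 1 higher and 1 lower. The MHC lists had shares near the 5.53% higher and 3.75% lower of all genes tested. Of 15 MHC class II genes, H2-Ab1 was higher, at 8.02 and 19.2 against 3.03 and 4.49 CPM (1.63 ± 0.30, adjusted p = 0.0302), as it was by 1.49 at day 0 without passing. Of 20 class I genes, H2-M3 was lower (-1.24 ± 0.29, adjusted p = 0.0495). Neither was called without wild-type TNF replicate 1, and H2-M3 was not called without knockout TNF replicate 1 or a wild-type day 0 library either.

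**Figure D4:**
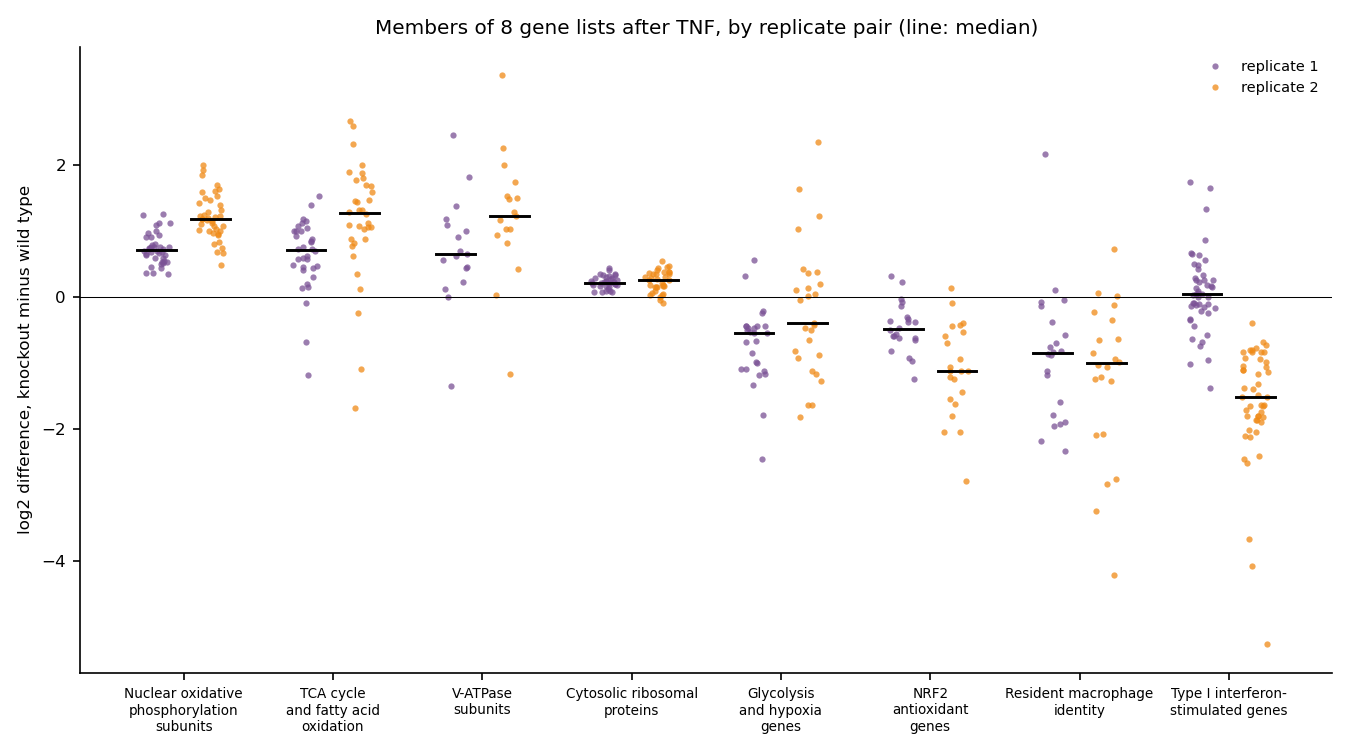
Log2 difference, knockout minus wild type after TNF, of each tested member of 8 gene lists, in replicate 1 (purple) and replicate 2 (orange), with the list median as a line. The oxidative phosphorylation genes lie above 0 in both replicates (medians 0.71 and 1.17), and the interferon-stimulated genes lie around 0 in replicate 1 (0.04) and below it in replicate 2 (-1.51).

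Of 22 genes that mark resident macrophages 7 were lower after TNF in the knockout, 0 were higher, and the median was -1.05. Besides Siglec1 and Fcgr1 these were Pltp, the phospholipid transfer protein, from 284 and 129 to 73.2 and 17.6 CPM (-2.39), Fcrls, an Fc receptor-like gene with 164 and 10 reads over the 2 libraries of each group (-1.94), the selenoprotein Sepp1 (-1.40), Cbr2 (-1.06) and the factor Maf, from 127 and 139 to 58.2 and 72.3 CPM (-1.03). Stab1, a scavenger receptor, and Dock1, which drives engulfment, were lower among 18 efferocytosis genes (-1.60 and -1.12), of which 0 were called without wild-type TNF replicate 1. The defining markers of macrophages moved alongside: 10 of 12 were negative, and their summed level was lower in both knockout libraries than in both wild-type libraries, as given above. Their part in the other decreases was not tested. Called among them were Cd14 and Lyz2, the locus that carries Cre, at 26.6 and 102 CPM in wild type and 13.7 and 25.8 CPM in the knockout (-1.45 ± 0.33, adjusted p = 0.0481). Lyz2 is nearly identical to Lyz1, and its value is uncertain. Resident macrophage genes called lower numbered 2 without wild-type TNF replicate 1 and 4 without a knockout day 0 library.

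Markers of other cell types were low. Neutrophil markers summed to 154 and 329 CPM in wild type and 79.2 and 156 CPM in the knockout, with Retnlg at 0 in all 4 libraries. Of 18 tested 1 was called, the granule peptide Camp (-1.41 ± 0.21, adjusted p = 0.0214), near the 3.75% of all genes called lower. Camp overlapped between the groups, at 4.57 and 15.4 against 1.52 and 5.12 CPM (limma adjusted p = 0.745 without the block). Dendritic cell markers summed to 319 and 222 against 238 and 253 CPM, with 0 of 14 called by limma (3 at unadjusted p under 0.05) or edgeR and 1 in each direction by DESeq2. Stromal markers, at 348 and 160 against 398 and 111 CPM, had 0 of 17 called by limma, edgeR and DESeq2, and 0 at unadjusted p under 0.05 in limma. B lymphoid markers were at most 38.9 CPM in sum, with Vpreb1 and Igll1 at 0 and Cd22 called lower (-1.69). Cd22 was 1 of 5 tested and overlapped, at 7.32 and 30.8 against 2.13 and 8.49 CPM (limma adjusted p = 0.62 without the block). T and NK markers were at most 27.4 CPM, with Cd3d and Gzma at 0 and 13 of 15 under 1 CPM in all 4 libraries. Mast cell markers were at most 9.91 CPM, with Cma1 and Mcpt4 at 0, although the tryptase Tpsab1 was higher, at 2.33 and 2.48 against 0.140 and 0 CPM (70 reads in the knockout and 5 in wild type, adjusted p = 0.0203). Tpsab1 reached 1 CPM only in the 2 knockout TNF libraries and passed the filter only through them, so its call is no support for a difference. Erythroid and megakaryocyte markers summed to 167 and 96.8 against 162 and 40.9 CPM, most of it Pf4, with the globins at 0. Where these sums were lower in the knockout, their part in the decreases above was not tested.

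No cell cycle gene passed in limma with all 8 libraries. Of 21 survival genes 1 was higher and 1 lower, near the 5.53% and 3.75% of all genes tested. Of 45 cell cycle genes 0 were called by limma (4 at unadjusted p under 0.05) or edgeR and 2 lower by DESeq2, with 40 negative and a median of -0.43. The pairs differed, with medians of -0.18 and -0.82, and the median was 0.02 without knockout TNF replicate 2 and -1.02 without knockout TNF replicate 1, where limma called 2 genes lower. The knockout median was lower by a like amount at day 0 (-0.50). Mki67, a proliferation marker, stood at 490 and 244 CPM in wild type and 310 and 118 CPM in the knockout, overlapping (-0.85 ± 0.39, adjusted p = 0.220). Of 21 genes of the BCL-2 family and cell death, Pmaip1, a killer protein also called NOXA, was higher (1.31 ± 0.25, adjusted p = 0.0302), as it was by 1.39 at day 0 without passing, and Bcl2l1, which protects cells, was lower (-0.85 ± 0.15, adjusted p = 0.0275). Neither was called without either knockout day 0 library.

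Set against day 0, most of the differences were larger after TNF. The 674 higher genes had a median log2 difference of 1.39 after TNF and 0.01 at day 0, and the 457 lower genes -1.26 and -0.09. These genes were chosen for their values after TNF, and the TNF and day 0 differences have no library in common. The fusion list had medians of 1.40 and -0.01, resorption 1.50 and 0.07, the proton pump 0.91 and -0.05 and the TCA cycle 1.03 and -0.05. The test of the difference between the times called 0 genes in limma (2192 at unadjusted p under 0.05) and in edgeR, and 986 in DESeq2. The smallest adjusted p in limma was 0.0537, for Itgb3 and Mst1r, whose difference grew by 4.44 and 5.12 on the log2 scale. Dcstamp (0.0593) and Atp6v0d2 (0.0738) followed, so that these differences were not shown to be particular to TNF at the threshold used. Without knockout TNF replicate 1, the shallowest library, 322 genes were called. A few genes differed by a similar amount at both times, among them Rbpj (-2.60 and -2.96), Pdpn (-3.45 and -3.24), Jag1 (-1.09 and -1.27), Pmaip1 and H2-Ab1.

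**Figure D5:**
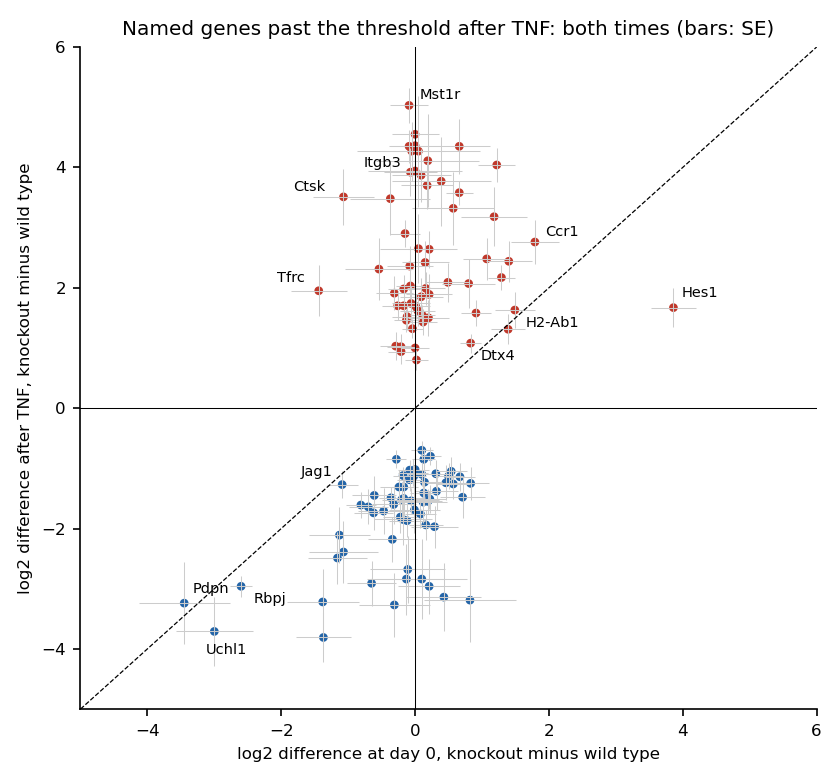
Log2 difference between knockout and wild type at day 0 (horizontal axis) and after TNF (vertical axis) for the 122 named genes called after TNF, with SE bars from limma. The dashed line marks equal differences: Rbpj and Pdpn lie near it, Hes1 to the right of it at 3.86 and 1.67, and Mst1r, Itgb3 and Ctsk far above it.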

How the data were processed

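The deposited values are CPM, made by the authors with fastp, HISAT2, HTSeq and edgeR on build mm10 per the submitters' processing notes, from poly-A RNA per the labels' protocols. The sources used here give no versions, strand setting or annotation. The table held 24421 genes, of which 27 had symbols turned into dates. Whole reads were recovered from the CPM (100% of values within 0.01 of a whole number), and the counts of each group's replicates differed by more than sampling noise. Positions came from GENCODE M21 (23350 symbols matched).

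limma 3.58.1 (lmFit and eBayes with trend, 2-sided, R 4.3.3) was fitted to log2(CPM + 0.5) of all 8 libraries, for the 12194 genes that reached 1 CPM in 2 or more libraries, with group and replicate number as terms and 3 residual degrees of freedom. Differences on this scale understate the change of low genes, and a ± is the moderated SE. The series states 2 independent experiments, and the replicates' deviations correlated between every pair of groups (r 0.577 to 0.805 across genes, 0.753 for the TNF groups), so the numbers were taken to pair the libraries. The alternatives were other pseudocounts (0.1 and 1), filters and scalings, no block, the 4 TNF libraries alone, each library left out, and edgeR 4.0.16 and DESeq2 1.42.0 on the recovered reads.

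Members and the 47 gene lists were chosen with earlier results of these data known. Named genes were Rbpj, genes fixed by name, the 12 largest increases and 12 largest decreases without overlap and at least 5 CPM in the higher group, and up to 4 called members of each list with at least 2 CPM (2 where none was called). Other genes were named, after their values were seen, to complete a list's calls or as members that were not called. Some genes that this rule names are not reported here.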

Additional observations from a re-analysis of the deposited data

Results flagged for a closer look

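In 8 of the named genes the knockout was on opposite sides of wild type at day 0 and after TNF. This held in both pairs and without overlap at either time. How many of all genes tested meet this rule is not given here. The day 0 difference passed for none of the 8 (limma adjusted p from 0.597 for Tfrc to 0.998 for Myo1e). The change of the log2 difference from day 0 to TNF was -1.02 for Bcl6, 1.87 for Myo1e, 1.32 for Vcl, -2.19 for Ptger4, 3.39 for Tfrc, -1.80 for Pfkfb3, -2.08 for Il10ra and -1.62 for Il21r. The test of that change did not pass for any of them (limma adjusted p from 0.104 for Tfrc to 0.135 for Vcl). Tfrc, the transferrin receptor, went furthest: at day 0 the knockout had 431 and 194 CPM and wild type 627 and 982 CPM, while after TNF the knockout had 1882 and 2485 CPM and wild type 524 and 597 CPM.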

How the results depend on the processing

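The replicate block decided most calls: without it 1 gene was higher and 0 were lower, and Rbpj had adjusted p = 0.0735 at the same -2.96. Within the 4 TNF libraries 77 genes were higher and 35 lower, with no filter on low values 428 and 264, and by DESeq2 1244 and 1074. When 1 library was left out the counts ran from 0 to 655 higher and 0 to 452 lower. They were 0 and 0 without wild-type TNF replicate 2, 7 and 1 without knockout TNF replicate 2, 330 and 197 without wild-type TNF replicate 1, 397 to 400 and 275 without a wild-type day 0 library, and 244 to 252 and 159 to 162 without a knockout day 0 library. Genes whose difference changed between the times numbered 1 with a pseudocount of 1, 986 by DESeq2, and 0 to 322 with 1 library left out, 322 without knockout TNF replicate 1. Rbpj lay between -3.10 and -2.82 when 1 library was left out, and it missed the threshold at -3.0 (adjusted p = 0.0828) without wild-type TNF replicate 2.

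Every called gene kept its direction wherever it was tested. Without the block, in the 4 TNF libraries alone or without a day 0 library this had to hold, because the design leaves the estimate unchanged. All 1131 called genes also had the same direction in both pairs, so the stability is weak support. Among named genes that were not called, some changed sign when 1 library was left out: Csf1r (-0.34 to 0.00), Cxcl10 (-0.51 to 0.79; -0.28 without wild-type TNF replicate 2), Arg1 (-3.53 to 0.47), Myc (-0.59 to 0.70; -0.45 without wild-type TNF replicate 2), Klrb1c (-1.03 to 1.16; -0.17 without knockout TNF replicate 1), Vcam1 (-0.02 to 2.57) and Col1a1 (-2.54 to 0.18). Klrb1c was 0.00 with a pseudocount of 1. The cause was not tested. The 2 libraries a group limit every comparison, and in the shallowest library genes under 1 CPM rest on few reads.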
